A study of Mus musculus with 12 samples.

Results

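The 10 genes described here encode 4 Toll-like receptors (Tlr9, Tlr7, Tlr2 and Tlr4), the co-receptor Cd14, and proteins that fold, carry, process or serve those receptors (Unc93b1, Cnpy3, Slc15a4, Lgmn and Myd88). They were taken by gene symbol, and all 10 were found among the 33531 genes listed for each of 12 RNA libraries. The libraries came from a mouse acute myeloid leukaemia line with the inv(16) rearrangement, CMM-tetON-shStat3, which carries a hairpin RNA against Stat3 switched on by doxycycline and is marked by GFP and mCherry. The cells grew in NSG mice after intravenous injection, an immunodeficient host strain whose animals keep neutrophils, monocytes and red cell precursors of their own but lack mature T, B and NK cells. Dosing started once leukaemia cells made up about 1% of the blood, and GFP+mCherry+ cells were sorted from the spleen 1 day after the last dose. Values are RPKM, read numbers scaled to transcript length and library size, so they are levels per length.

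The 4 groups had 3 libraries each, and every group carried the hairpin. The PBS group received vehicle, the CpG1668 group an unmethylated CpG oligonucleotide, the Dox group doxycycline, and the CpG1668+Dox group (the combination) both agents. No group received doxycycline without the hairpin, so the drug and the hairpin cannot be told apart. The labels give the schedule as 6 daily treatments in one place and as 3 treatments every other day in another. Whether the 3 libraries of a group are 3 mice is not stated, and p-values therefore describe the spread between libraries, which may be technical.

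Toll-like receptors are sensors of microbial molecules that signal from the cell surface (TLR2, TLR4) or from endosomes (TLR7, which binds RNA, and TLR9, which binds unmethylated CpG DNA). The endosomal receptors need chaperones in the endoplasmic reticulum, the transport protein UNC93B1 and cleavage by endosomal proteases before they can signal. MYD88 is the adaptor that passes the signal of these 4 receptors to the kinases and transcription factors downstream, and myeloid cells such as monocytes, neutrophils and macrophages express most of the set.

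The upstream windows of 2 members that lie outside annotated exons, the receptor gene Tlr9 and the chaperone gene Cnpy3, are shown to set a gene at under 1 RPKM beside one near 10 RPKM. Each is the 250 bases before the RefSeq start (GRCm38.p6), written 5′ to 3′ on the gene's strand. Tlr9 is at chr9:106222348-106222597 on the plus strand, where capitals mark a PU.1 core (AGGAAG) and an AP-1 motif (TGANTCA). Cnpy3 is at chr17:46752215-46752464 on the minus strand, where capitals mark 3 CCAAT boxes in reverse complement, a C/EBP motif (TTGCNNAA, in reverse complement) and an E-box (CACGTG).
Tlr9: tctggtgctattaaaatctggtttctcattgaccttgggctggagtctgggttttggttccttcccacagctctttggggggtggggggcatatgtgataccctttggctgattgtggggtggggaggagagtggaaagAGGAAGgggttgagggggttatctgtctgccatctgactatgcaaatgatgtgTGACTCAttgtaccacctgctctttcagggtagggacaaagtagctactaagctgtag
Cnpy3: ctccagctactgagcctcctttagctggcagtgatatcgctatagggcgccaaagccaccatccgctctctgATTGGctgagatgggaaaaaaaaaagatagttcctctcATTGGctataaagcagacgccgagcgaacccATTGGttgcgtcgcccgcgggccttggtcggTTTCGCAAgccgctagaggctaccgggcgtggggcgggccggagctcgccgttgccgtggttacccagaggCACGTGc

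The Tlr9 window had 50.4% G and C and 0 CG steps, and that of Cnpy3 had 59.6% and 21 CG steps. Over all 32851 windows of this length, the medians were 52.4% and 6 CG steps. On either strand, AGGAAG was in 29.5% of all windows, TGANTCA in 6.75%, TTGCNNAA in 9.56%, CACGTG in 6.02% and CCAAT in 33.8%. These matches are descriptions of letters and not of binding. Windows were available for 6 of the 10 members. A window of Lgmn also lay outside annotated exons and is not shown. A link between these letters and RNA levels was not tested.

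In the combination, 9 of the 10 genes were higher than in PBS and 1, Lgmn, was lower, all by the limma test. An adjusted p below 0.05 counts as a call throughout. CpG1668 alone changed 6 genes (5 higher, 1 lower) and Dox alone 3 genes (all higher). Among the 9 higher genes, the change in the combination ran from a 10-fold ratio of group means for Tlr4, a gene at under 1 RPKM, to 1.13-fold for Myd88. The same test called 9.13% of the 12167 genes that averaged 1 RPKM or more higher and 6.4% lower in CpG1668+Dox against PBS. In CpG1668 against PBS it called 3.06% higher and 2.83% lower, and in Dox against PBS 3.95% higher. Tlr9, Tlr7 and Tlr4 averaged less than 1 RPKM and were read from the same fit over all 33531 genes. That fit called 5.54% higher and 2.29% lower in the combination, 1.25% and 0.608% in CpG1668, and 0.79% higher in Dox. The other 7 members had a PBS mean above 1, so none of them passed the limit through a treated group alone. Quantile normalization moved the share of higher calls among called genes from 65.9% to 51.5% for Dox against PBS and from 58.8% to 42.1% for the combination against PBS.

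The median log2 change of the 10 genes was 0.34 for CpG1668, 0.23 for Dox and 0.55 for the combination, each against PBS, beside -0.01, 0.01 and 0 over all genes tested. These 3 comparisons share the PBS libraries. The libraries of the combination lay above all PBS libraries for 9 members and below them for 1, where 18.8% and 16.6% of the 12167 genes were separated in these directions. For CpG1668 these numbers were 8 members above and 1 below, beside 11.3% and 14.3%, and for Dox 8 and 1, beside 15.2% and 9.81%. The combination lay above CpG1668 for 8 members (15.2% of genes) and above Dox for 9 (8.84%). CpG1668 lay above Dox for 2 members (5.15% of genes) and below it for 2 (14.4%). Log2 changes here are differences in log2(RPKM + 1), which understate the change of genes with low values, and ratios of mean RPKM therefore stand beside them. Group means ran in the order PBS, Dox, CpG1668, CpG1668+Dox for 7 genes. For Tlr7 and Cnpy3 the order was PBS, CpG1668, Dox, CpG1668+Dox, and for Lgmn it was CpG1668, CpG1668+Dox, Dox, PBS from lowest to highest.

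**Figure D1:**
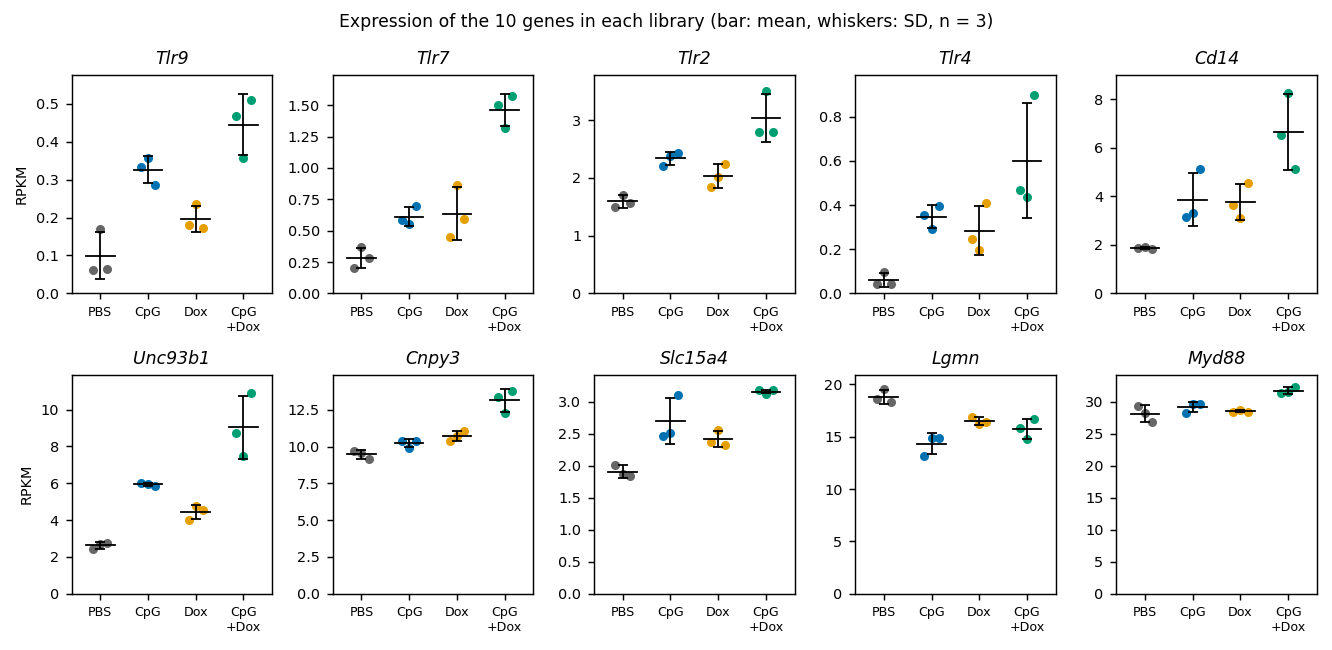
RPKM of the 10 genes in each of the 12 libraries, by group; points are libraries, the bar is the mean and whiskers are 1 SD (n = 3), and each panel has its own linear axis from 0. In 9 panels the CpG1668+Dox libraries lie above every PBS library, and in the Lgmn panel they lie below.

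Several facts of the whole series touch these values. Estimated depth was 30430000 to 35010000 reads per library, at which 3 reads on a transcript of 1 kb give an RPKM of 0.0857 to 0.0986. Stat3, the target of the hairpin, had 17.2 ± 0.576 RPKM (SD, n = 3) with PBS, 18.2 ± 0.483 with CpG1668, 18.9 ± 0.173 with Dox and 19.4 ± 0.331 with both agents, so the libraries labelled Dox did not have less Stat3 RNA. Stat3 was called higher in Dox (0.13, adjusted p = 0.0439, a call that held in 3 of 12 fits with a library left out) and in the combination (0.16, adjusted p = 0.00675). Its exons overlap those of Stat5a (18.6 RPKM on average) on the opposite strand, whose reads cannot be told apart there. Irf8, a myeloid transcription factor gene, was 0.376 ± 0.0802, 1.61 ± 0.0536, 1.16 ± 0.0685 and 2.89 ± 0.614 RPKM in the same order. Summed RPKM of 10 late neutrophil markers was 103 to 209 in PBS, 602 to 791 in CpG1668, 549 to 2240 in Dox and 1630 to 4290 in the combination. The sum of 10 monocyte markers was 21 to 38.6, 125 to 144, 96.0 to 165 and 277 to 411. Most of that sum was Lyz2, with means of 22.0, 101, 121 and 288 RPKM. The sum of 8 erythroid markers went the other way, at 4830 to 6430, 1980 to 3260, 1290 to 2670 and 1240 to 2020. Most of it was the globin genes Hba-a1 and Hbb-bt, with means of 2510 and 2290 RPKM in PBS and 655 and 473 in the combination. Alas2 also fell, from 78.7 to 15.7, but Gata1 was 104 and 89.8 and Klf1 was 49.0 and 47.4 in these groups. The 5 leukaemia cell markers summed to 73.6 to 89.1 over all 12 libraries, but single markers moved in opposite directions. Limma called 1 higher and 2 lower in CpG1668 against PBS, and 1 higher and 1 lower in the combination against PBS. From PBS to CpG1668, mean Cd34 rose from 0.0404 to 0.258 RPKM, while Erg fell from 11.3 to 8.89 and Gata2 from 23.1 to 20.1. The CpG1668 libraries overlapped those of PBS for the other 2 markers.

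Tlr9, the receptor for CpG DNA, was at a low level in every library. It was 0.0616, 0.170 and 0.0654 RPKM in PBS, 0.332, 0.358 and 0.287 in CpG1668, 0.180, 0.236 and 0.173 in Dox and 0.468, 0.356 and 0.511 in the combination. At the estimated depth these values stand for 7 to 19 reads in PBS, 35 to 43 in CpG1668, 19 to 25 in Dox and 42 to 55 in the combination. The CpG1668 and combination libraries all lay above every PBS and every Dox library, and these 2 groups overlapped each other. The Dox libraries lay just above the PBS libraries, with the highest PBS library at 0.170 and the lowest Dox library at 0.173.

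The ratio of mean Tlr9 levels to PBS was 3.29 in CpG1668, 1.98 in Dox and 4.49 in the combination. Without PBS 2, the highest PBS library, these ratios were 5.13, 3.09 and 7.01. Tlr9 rose in the combination against PBS (log2 change 0.39, 95% interval 0.28 to 0.51, limma adjusted p = 0.00148) and against Dox (0.27, adjusted p = 0.0295). It also rose in CpG1668 against PBS (0.27, interval 0.16 to 0.39, adjusted p = 0.0329). Dox against PBS (0.12, adjusted p = 0.347) and the combination against CpG1668 (0.12, adjusted p = 0.385) did not pass. The call in CpG1668 against PBS was lost, with an adjusted p of up to 0.11, when any 1 of 8 libraries was left out (PBS 1 or 3, CpG1668 1, 2 or 3, Dox 1 or 3, or CpG1668+Dox 1). The call against Dox was lost, also with an adjusted p of up to 0.11, without CpG1668 1, without CpG1668+Dox 1 or 3, or without any 1 of the Dox libraries. The gene (ENSMUSG00000045322.10) lies at 106222598 to 106226883 on the plus strand of chromosome 9 in GRCm38, by GENCODE M21.

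Tlr7, the endosomal receptor for single-stranded RNA, was the one of the 4 member receptors called in the combination against each single agent. Its RPKM was 0.202, 0.367 and 0.279 in PBS, 0.582, 0.554 and 0.699 in CpG1668, 0.452, 0.868 and 0.590 in Dox and 1.5, 1.32 and 1.57 in the combination. All 3 combination libraries stood above every other library, while the CpG1668 and Dox libraries overlapped. The ratio of means to PBS was 2.16 in CpG1668, 2.25 in Dox and 5.17 in the combination. Tlr7 rose in the combination against PBS (0.94, interval 0.73 to 1.15, adjusted p = 3.8e-04), against CpG1668 (0.61, interval 0.40 to 0.82, adjusted p = 0.0285) and against Dox (0.60, adjusted p = 0.0142). Neither agent alone passed against PBS (0.33 for CpG1668 and 0.35 for Dox, adjusted p = 0.135 for each). The call against CpG1668 was lost without PBS 3, without any 1 CpG1668 library or without CpG1668+Dox 1 or 3 (adjusted p up to 0.094). The call against Dox was lost without CpG1668+Dox 1 or 3 or without Dox 3 (adjusted p up to 0.055). Tlr7 (ENSMUSG00000044583.13) lies on chromosome X at 167304929 to 167330558, minus strand.

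Tlr2, a surface receptor for bacterial lipoproteins, was the most abundant of the 4 receptors. It was 1.5, 1.71 and 1.57 RPKM in PBS, 2.21, 2.38 and 2.43 in CpG1668, 1.84, 2.01 and 2.25 in Dox and 2.80, 3.51 and 2.79 in the combination. Each treated group lay above every PBS library, and the combination lay above all others. Tlr2 rose in CpG1668 (0.36, interval 0.20 to 0.53, adjusted p = 0.0184) and in the combination (0.63, interval 0.46 to 0.80, adjusted p = 1.7e-04) against PBS, and in the combination against Dox (0.41, adjusted p = 0.0114). Dox against PBS was 0.22 (adjusted p = 0.126) and the combination against CpG1668 was 0.27 (adjusted p = 0.0915). The CpG1668 call was lost without PBS 1 or 3 or without CpG1668 2 or 3 (adjusted p up to 0.070), and that against Dox without Dox 1 (adjusted p = 0.053). Tlr2 (ENSMUSG00000027995.10) lies on chromosome 3 at 83836272 to 83841767, minus strand.

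Tlr4, the receptor for bacterial lipopolysaccharide, had the lowest PBS level of the 10 genes. It was 0.0441, 0.0954 and 0.0410 RPKM in PBS, which stands for 5 to 12 reads, and 0.353, 0.292 and 0.395 in CpG1668. It was 0.248, 0.195 and 0.411 in Dox and 0.469, 0.435 and 0.901 in the combination. Every treated library lay above every PBS library, and the third combination library, at 0.901, stood apart from the other two. The ratio of means to PBS was 5.76 in CpG1668, 4.73 in Dox and 10 in the combination. On the log2(RPKM + 1) scale only the combination passed against PBS (0.58, interval 0.35 to 0.82, adjusted p = 0.00834), and CpG1668 (0.34, adjusted p = 0.155) and Dox (0.27, adjusted p = 0.297) did not. With a pseudocount of 0.1, CpG1668 against PBS passed as well (1.49, adjusted p = 0.032), as it did without CpG1668+Dox 3 (adjusted p = 0.029). Tlr4 (ENSMUSG00000039005.13) lies on chromosome 4 at 66827584 to 66930284, plus strand.

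Cd14, the co-receptor that hands lipopolysaccharide to TLR4 and also helps nucleic acid sensing, was called with each agent alone, as was Unc93b1. Its RPKM was 1.86, 1.89 and 1.82 in PBS, 3.15, 3.31 and 5.12 in CpG1668, 3.63, 3.09 and 4.54 in Dox and 6.52, 8.26 and 5.13 in the combination. The PBS libraries were close together and the treated groups were spread, with the lowest combination library (5.13) next to the highest CpG1668 library (5.12). Cd14 rose in all 3 treated groups against PBS, by 0.75 in CpG1668 (interval 0.37 to 1.12, adjusted p = 0.0265), 0.72 in Dox (adjusted p = 0.0290) and 1.40 in the combination (interval 1.03 to 1.77, adjusted p = 1.7e-04). The combination did not pass against CpG1668 (0.65, adjusted p = 0.0644) or Dox (0.67, adjusted p = 0.0559). Against CpG1668 it passed without CpG1668 3 (adjusted p = 0.028), and against Dox without CpG1668 3, CpG1668+Dox 3 or Dox 3 (lowest adjusted p = 0.025). The CpG1668 call was lost without any 1 PBS library or without CpG1668 3 (adjusted p up to 0.087), and the Dox call without any 1 PBS library or without Dox 1 or 3 (adjusted p up to 0.11). Nfkbia, an early NF-kB target that is not a member, was 22.1 RPKM in CpG1668 3, 27.2 in CpG1668+Dox 2 and 29.1 in Dox 1, and Cd14 was at its group's highest in the first and second of these. Cd14 (ENSMUSG00000051439.7) is on chromosome 18.

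**Figure D2:**
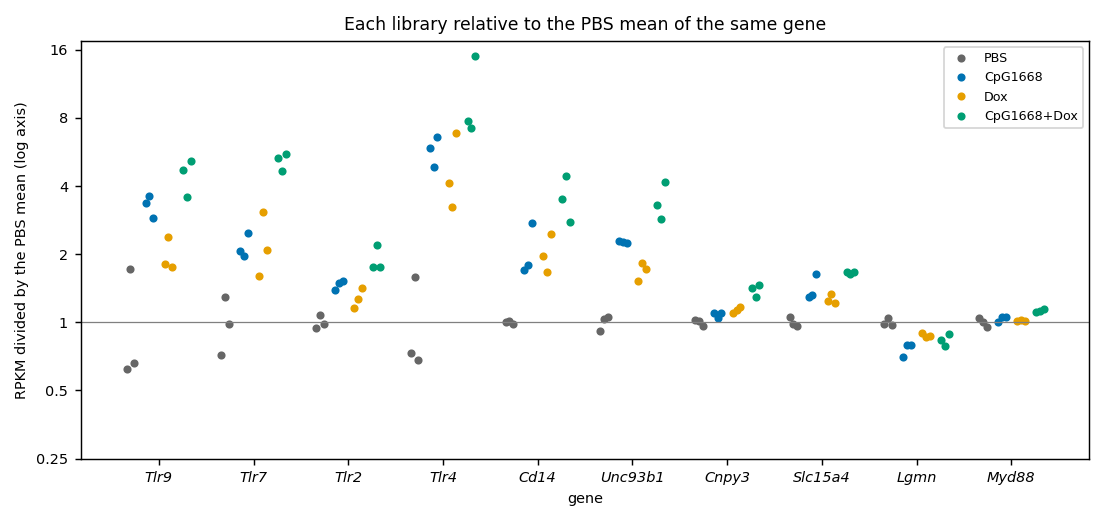
RPKM of each library divided by the PBS mean of the same gene, on a log axis, for the 10 genes; points are libraries and colours are groups. Tlr4, with a PBS mean of 0.0601 RPKM, has the highest points, while Myd88 lies near 1 in every group and the treated libraries of Lgmn lie below 1.

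Unc93b1 encodes the multipass protein that carries TLR7 and TLR9 from the endoplasmic reticulum to endosomes, and on the log2(RPKM + 1) scale it had the largest change of the 10 genes in CpG1668 and in the combination. By ratio of means it came after Tlr4 and Tlr9 in CpG1668, and after Tlr4, Tlr7, Tlr9 and Cd14 in the combination. It was 2.41, 2.71 and 2.76 RPKM in PBS, 6.00, 5.94 and 5.86 in CpG1668, 4.01, 4.78 and 4.52 in Dox and 8.71, 7.5 and 10.9 in the combination. No 2 of the 4 groups overlapped. Means were 2.63 ± 0.185, 5.93 ± 0.0663, 4.43 ± 0.387 and 9.05 ± 1.74 (SD, n = 3), which gives ratios to PBS of 2.26, 1.69 and 3.45. Unc93b1 rose in CpG1668 against PBS (0.94, interval 0.72 to 1.16, limma adjusted p = 2.8e-04). It rose in Dox against PBS (0.58, interval 0.36 to 0.80, adjusted p = 0.00696) and in the combination against PBS (1.46, interval 1.24 to 1.68, adjusted p = 2.5e-06). It also rose in the combination against CpG1668 (0.52, adjusted p = 0.0189) and against Dox (0.87, interval 0.66 to 1.09, adjusted p = 5.6e-04). The call against CpG1668 was lost without any 1 CpG1668 library or without CpG1668+Dox 1 (adjusted p up to 0.070), and the calls against PBS and Dox held without each of the 12 libraries in turn. Unc93b1 (ENSMUSG00000036908.17) lies on chromosome 19 at 3935186 to 3949340, plus strand.

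Cnpy3, a chaperone of the endoplasmic reticulum that folds several Toll-like receptors together with the heat shock protein gp96, changed little with single agents. It was 9.68, 9.58 and 9.16 RPKM in PBS, 10.4, 9.93 and 10.4 in CpG1668, 10.4, 10.7 and 11.1 in Dox and 13.4, 12.3 and 13.8 in the combination. The combination libraries lay above all 9 others. Cnpy3 rose in the combination against PBS (0.43, interval 0.34 to 0.53, adjusted p = 4.4e-05), against CpG1668 (0.33, adjusted p = 0.00432) and against Dox (0.27, adjusted p = 0.00491), and these calls held without each library in turn. CpG1668 against PBS was 0.10 (adjusted p = 0.224). Dox against PBS was at the threshold (0.16, adjusted p = 0.0499), and this call was lost without any 1 library other than CpG1668+Dox 2 or 3 (adjusted p up to 0.16). Cnpy3 (ENSMUSG00000023973.13) lies on chromosome 17 at 46735705 to 46752214, minus strand.

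Slc15a4, a proton-coupled peptide and histidine transporter of endolysosomes needed for TLR7 and TLR9 signalling, was 2.02, 1.87 and 1.84 RPKM in PBS and 2.46, 2.52 and 3.11 in CpG1668. It was 2.37, 2.56 and 2.33 in Dox and 3.18, 3.13 and 3.18 in the combination. The CpG1668 and Dox libraries overlapped, and the combination lay above both. Slc15a4 rose in CpG1668 (0.34, interval 0.20 to 0.48, adjusted p = 0.0105) and in the combination (0.52, interval 0.38 to 0.66, adjusted p = 2.2e-04) against PBS, and both calls held without each library in turn. It also rose in the combination against Dox (0.28, adjusted p = 0.034). That call was lost without PBS 2 or without any 1 combination or Dox library (adjusted p up to 0.12). Dox against PBS (0.24, adjusted p = 0.0577) passed without CpG1668 3 (adjusted p = 0.017). The combination against CpG1668 (0.18, adjusted p = 0.201) also passed without that library (adjusted p = 0.036). Slc15a4 (ENSMUSG00000029416.17) lies on chromosome 5 at 127595664 to 127632897, minus strand.

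Lgmn, the gene of the endosomal protease legumain that can cleave TLR9, was the single member that fell. It was 18.6, 19.6 and 18.3 RPKM in PBS, 13.2, 14.9 and 14.9 in CpG1668, 16.9, 16.2 and 16.4 in Dox and 15.8, 14.8 and 16.7 in the combination. All 9 treated libraries lay below all PBS libraries, and the lowest library was CpG1668 1, followed by CpG1668+Dox 2. Lgmn fell by 0.37 in CpG1668 against PBS (log2 change -0.37, interval -0.49 to -0.26, adjusted p = 0.00196) and by 0.24 in the combination (-0.24, interval -0.36 to -0.13, adjusted p = 0.00961), without exception when a library was left out. Dox against PBS was -0.18 (adjusted p = 0.0707) and passed without CpG1668 1 (adjusted p = 0.041). The combination was 0.13 above CpG1668 (interval 0.01 to 0.25, adjusted p = 0.258) and did not pass. Lgmn (ENSMUSG00000021190.14) lies on chromosome 12 at 102394084 to 102439813, minus strand.

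Myd88, the shared adaptor, was the most abundant of the 10 genes and moved least. Its RPKM was 29.4, 28.2 and 26.8 in PBS, 28.3, 29.7 and 29.6 in CpG1668, 28.4, 28.7 and 28.4 in Dox and 31.4, 31.5 and 32.3 in the combination. The single-agent groups overlapped PBS and the combination lay above all other libraries. Myd88 rose in the combination against PBS (0.17, interval 0.09 to 0.25, adjusted p = 0.00904), which corresponds to a ratio of means of 1.13. CpG1668 against PBS was 0.05 (interval -0.03 to 0.13, adjusted p = 0.46) and Dox against PBS was 0.02 (interval -0.06 to 0.10, adjusted p = 0.805). Exons of Myd88 overlap those of Acaa1a on the opposite strand, whose mean was 7.79 RPKM, and without a stated strand setting the reads of the shared bases cannot be told apart. Myd88 (ENSMUSG00000032508.8) lies on chromosome 9 at 119335934 to 119341411, minus strand.

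Adding doxycycline to CpG1668 raised 3 of the 10 genes (Tlr7, Unc93b1 and Cnpy3), in a comparison where 3.07% of the 12167 genes and 0.856% of all 33531 were called higher. Adding CpG1668 to doxycycline raised 6 (Tlr9, Tlr7, Tlr2, Unc93b1, Cnpy3 and Slc15a4), beside 2.81% and 1.71%. With quantile normalization the share of higher calls among called genes went from 94% to 82.3% in the first of these comparisons. The test called 0 of the 10 genes between CpG1668 and Dox, where 1.56% and 0.304% of genes were called and 3 members, beside 15.2% of the 12167 genes, had an unadjusted limma p under 0.05. Unc93b1 came nearest to a call (0.35 higher in CpG1668, interval 0.13 to 0.57, adjusted p = 0.11), and without CpG1668+Dox 3 it passed (adjusted p = 0.028).

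The interaction asks whether the combination differs from the sum of the single changes on the log2(RPKM + 1) scale. It called 0 of the 10 genes by limma, in a fit where 0 of 12167 genes, and 0.0358% of all genes, were called. At an unadjusted p under 0.05, 2 of the 10 genes remained, beside 6.67% of the 12167. They were Lgmn (0.31, interval 0.15 to 0.48, adjusted p = 0.463) and Cnpy3 (0.17, interval 0.03 to 0.30, adjusted p = 0.651). The intervals of the others included 0, such as -0.60 to 0.45 for Cd14, -0.16 to 0.16 for Tlr9 and -0.02 to 0.21 for Myd88. In ratios of means, the product of the single ratios was 3.82 for Unc93b1 against a combination ratio of 3.45, and 4.88 for Tlr7 against 5.17. The widest gap was that of Tlr4, with a product of 27.3 against 10 and an interaction of -0.64 (adjusted p = 0.83) with a pseudocount of 0.1. For Lgmn the product was 0.664 against 0.837. For Tlr9 the product was 6.51 against 4.49, and with a pseudocount of 0.1 its interaction was -0.26 (adjusted p = 0.86).

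**Figure D3:**
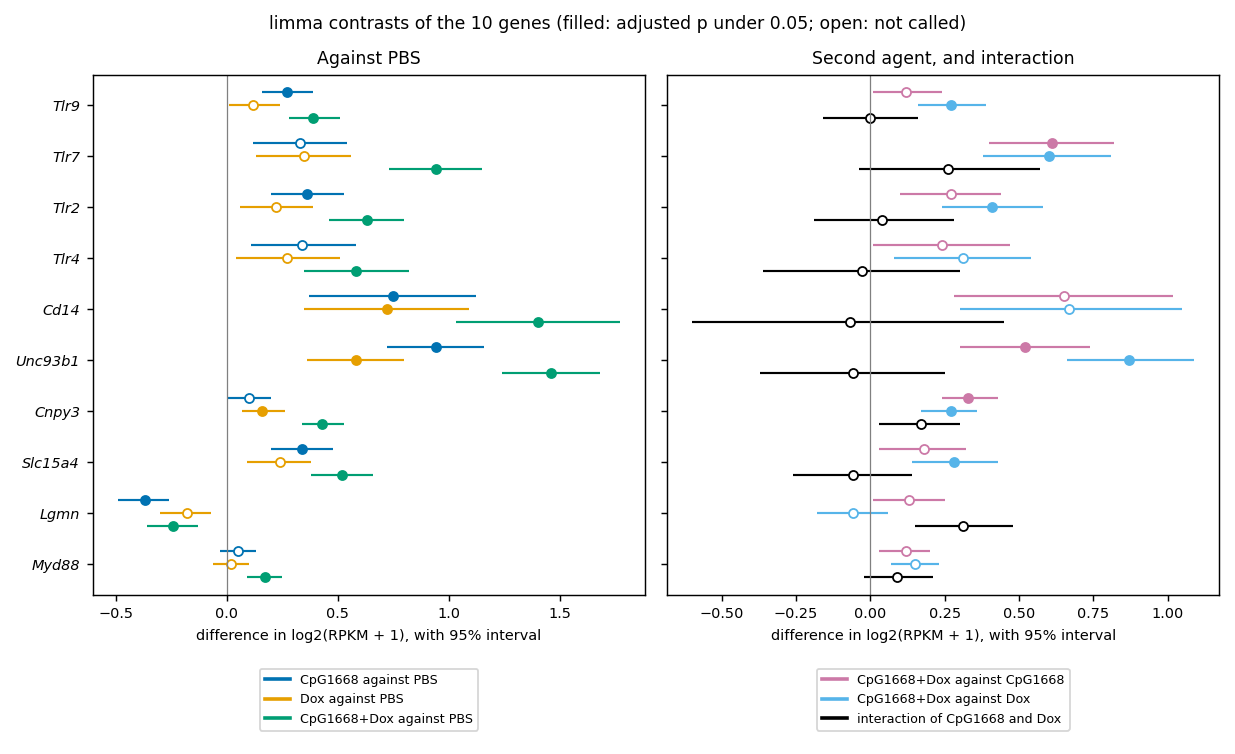
limma differences in log2(RPKM + 1) with 95% intervals for the 10 genes, against PBS on the left and for the added agent and the interaction on the right; filled points have an adjusted p under 0.05. All 10 combination points on the left are filled, and 0 interaction points on the right are.

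The other Toll-like receptor genes were low in these cells, and 1 of 8 (Tlr13) averaged 1 RPKM or more. Called higher were 4 of 8 in CpG1668 (Tlr1, Tlr6, Tlr8 and Tlr13), 1 in Dox (Tlr13) and 5 in the combination (those 4 and Tlr5), and 0 were called lower. Over all 33531 genes, 1.25%, 0.79% and 5.54% were called higher in these comparisons. Tlr5 was near the floor, with means of 0.0109 RPKM in PBS and 0.0887 in the combination. The median log2 change of the 8 genes was 0.20, 0.20 and 0.41 in the 3 comparisons. Tlr13, the endosomal receptor for bacterial ribosomal RNA, was 0.393 ± 0.106 RPKM with PBS, 1.46 ± 0.166 with CpG1668, 1.37 ± 0.255 with Dox and 2.98 ± 0.405 with both agents (log2 change 1.51 against PBS). Tlr13 averaged 1 RPKM only through the treated groups, and over all 33531 genes its adjusted p was 6.7e-05. The combination exceeded both single agents for Tlr13 (0.69 above CpG1668 and 0.75 above Dox, adjusted p = 0.027 and 0.0077 over all genes) and for Tlr8 (0.46 and 0.72, adjusted p = 0.0483 and 0.00406). The Tlr8 call against CpG1668 was lost without any 1 library other than CpG1668+Dox 2 (adjusted p up to 0.14). Tlr5 was also called against CpG1668 (adjusted p = 0.0408), and Tlr1 and Tlr6 against Dox (adjusted p = 0.0408 and 0.0285). Leaving out a library ended the Tlr5 call in 10 of 12 cases (all but Dox 1 and 3, adjusted p up to 0.13). It ended the Tlr1 call in 11 (all but CpG1668+Dox 2, up to 0.14) and the Tlr6 call in 8 (PBS 2 and 3, CpG1668 1, CpG1668+Dox 1 and 3 and the 3 Dox libraries, up to 0.10). Tlr8, an endosomal RNA receptor, was 0.172, 0.835, 0.532 and 1.53 RPKM (1.10 in the combination, adjusted p = 1.0e-04). Tlr1 and Tlr6, which pair with TLR2, had combination means of 1.12 and 0.777 RPKM beside 0.207 and 0.0770 in PBS (adjusted p = 8.1e-04 and 4.0e-04). The Tlr6 call in CpG1668 (adjusted p = 0.0344) was lost without any 1 of 10 libraries, the exceptions being CpG1668+Dox 2 and 3 (adjusted p up to 0.11). Tlr3, Tlr11 and Tlr12 stayed at group means of 0.108 RPKM or less and were not called.

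**Figure D4:**
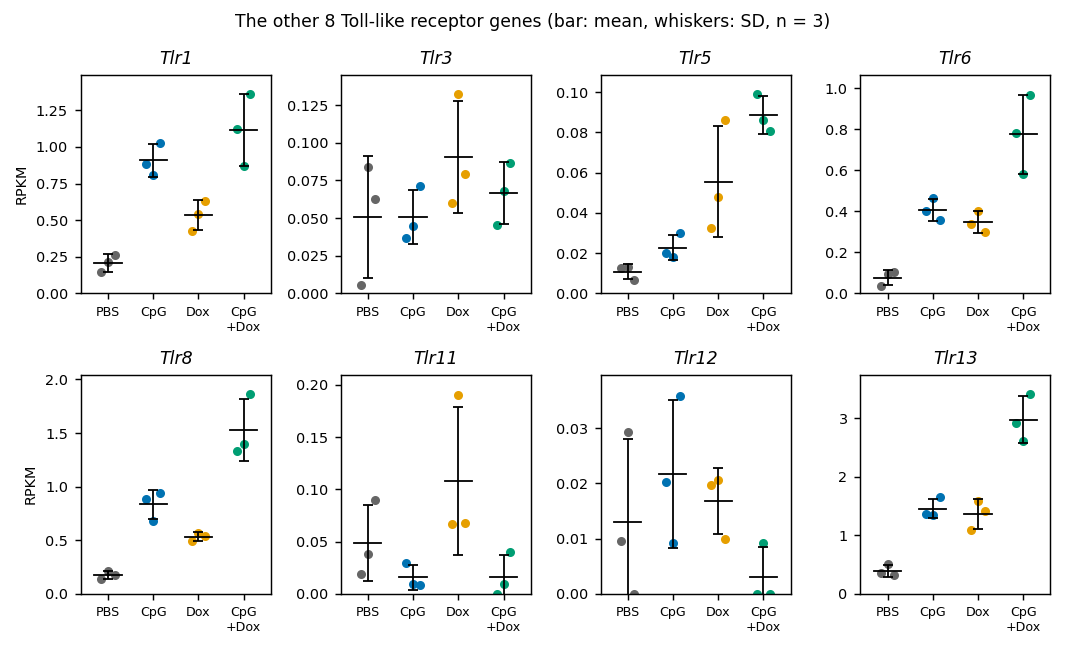
RPKM of the other 8 Toll-like receptor genes in each library, by group; points are libraries, the bar is the mean and whiskers are 1 SD (n = 3), on linear axes from 0 that differ between panels. Tlr13 reaches a mean of 2.98 in CpG1668+Dox, while Tlr3, Tlr5, Tlr11 and Tlr12 have group means of 0.108 or less.

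Of 14 further genes of receptor chaperoning, trafficking and processing, 3 were called higher and 1 lower in CpG1668, 3 higher in Dox and 6 higher in the combination, with median log2 changes of 0.03, 0.04 and 0.07. Of the 12167 genes, 3.06% were called higher and 2.83% lower in CpG1668, 3.95% higher in Dox and 9.13% higher in the combination. Ctss, the endosomal protease cathepsin S, was 4.42 ± 1.3, 14.6 ± 0.862, 11.6 ± 2.56 and 27.9 ± 3.77 RPKM in PBS, CpG1668, Dox and the combination (2.43 in the combination against PBS, adjusted p = 2.7e-06). Pld4, an endolysosomal exonuclease that degrades single-stranded DNA and RNA, was 1.17 ± 0.231, 4.83 ± 0.516, 3.14 ± 0.683 and 8.90 ± 0.761 (2.19, adjusted p = 5.7e-07). Lgmn and Ctss thus moved in opposite directions in CpG1668 and in the combination. Rab7b, a small GTPase of late endosomes, rose in all 3 treated groups from 0.0632 RPKM to 0.243, 0.249 and 0.314. Slc15a3, a relative of Slc15a4, rose in the combination (0.56, adjusted p = 0.00174). The other calls were the cathepsin genes Ctsb (0.27, adjusted p = 0.0383) and Ctsl (0.21, adjusted p = 0.0173), higher in the combination, and the vesicle fusion gene Vamp3, lower in CpG1668 (-0.16, adjusted p = 0.0373). Hsp90b1, which encodes gp96, was 148 ± 14.3, 149 ± 17.2, 146 ± 4.71 and 158 ± 10.3 RPKM and was not called.

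Among 6 other ligand recognition co-receptors, 2 were higher in CpG1668 (Ly86 and Cd180), 1 in Dox (Ly86) and 4 in the combination (with Lbp and Cd36), with median log2 changes of 0.36, 0.26 and 0.63. Of the 12167 genes, 3.06%, 3.95% and 9.13% were called higher, and of all 33531 genes 1.25%, 0.79% and 5.54%. Ly86, which pairs with CD180, was 0.305 RPKM in PBS, 1.5 with CpG1668, 0.939 with Dox and 2.36 with both agents (log2 change 1.36 against PBS). It averaged 1 RPKM only through the treated groups, and its adjusted p over all genes was 7.1e-05. Lbp, the lipopolysaccharide binding protein gene, was 0.0570 RPKM in PBS and 1.66 ± 0.566 in the combination (1.31, adjusted p = 0.00131). The call of Cd36 in the combination (0.34, adjusted p = 0.0183) was lost without PBS 1 or 2 or without CpG1668+Dox 1 or 2 (adjusted p up to 0.069).

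A list of 13 other adaptor and signalling genes gave 1 higher and 1 lower in CpG1668, 1 higher in Dox, and 2 higher and 1 lower in the combination. Their median log2 change was 0, 0.02 and 0.08. Of the 12167 genes, 3.06% were called higher and 2.83% lower in CpG1668, 3.95% higher in Dox, and 9.13% higher and 6.4% lower in the combination. Against these shares, the small counts of this list and of the negative regulators below are not read as a result about either list. Irf5, a transcription factor activated through MYD88, rose in all 3 groups, from 7.61 ± 0.159 RPKM in PBS to 9.11 ± 0.496, 9.87 ± 0.689 and 11.6 ± 0.246 (adjusted p = 0.0204, 0.00348 and 1.7e-05). Its CpG1668 call was lost without PBS 1 or 2 or CpG1668 1 or 2 (adjusted p up to 0.079). Ticam2, the adaptor that links TLR4 to TRIF, rose in the combination (0.61, adjusted p = 4.2e-04) from a PBS level of 0.0927 RPKM. Tab1, a partner of the kinase TAK1, fell in CpG1668 (-0.29, adjusted p = 0.0367) and in the combination (-0.35, adjusted p = 0.00672). The CpG1668 call of Tab1 was lost without any 1 PBS library, without CpG1668 2 or 3 or without Dox 3 (adjusted p up to 0.12). Of 7 negative regulators, Tollip fell in CpG1668 (-0.16, adjusted p = 0.0188), a call lost without PBS 3 or CpG1668 1 or 3 (adjusted p up to 0.074), and limma called 0 in Dox or the combination; their median log2 change was 0.01, 0.03 and 0.09.

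Markers of several blood cell types also changed, and the lists did not all move the same way. In the combination against PBS, the test called 10 of 10 monocyte, 10 of 10 late neutrophil and 5 of 5 primary granule markers higher, and it called 7 of 8 erythroid markers lower. Of the 12167 genes, 9.13% were called higher and 6.4% lower, and of all 33531 genes 5.54% and 2.29%. F13a1, Fcgr1, Klf4, Mmp8, Cxcr2, Ly6g, Prtn3 and Ms4a3 averaged 1 RPKM only through the treated groups, as did Adgre1 (splenic macrophage) and Ighm (B cell). Their adjusted p over all genes is not given here, so these counts are a description. Of 10 splenic macrophage markers 2 were called higher, and their sum was 17.2 to 29.9 RPKM in PBS and 31.7 to 50.1 in the combination. The 7 plasmacytoid dendritic cell markers summed to 27.7 to 31.2 RPKM in PBS and 32.0 to 35.0 in the combination, where 2 were called higher. Most of the sum was Bst2, with means of 29.3 RPKM in PBS and 32.6 in the combination. Of the 7 markers, 5 had means under 0.2, with Siglech at 0.0663 to 0.108. The 6 B cell markers summed to 0.721 to 1.02 RPKM in PBS, 3.56 to 4.34 in CpG1668, 2.33 to 2.67 in Dox and 6.62 to 9.9 in the combination, where 2 (Ighm and Cd79b) were called higher and 3 had means under 0.2. The 6 conventional dendritic cell markers summed to 1.49 to 2.57 RPKM in PBS and 1.33 to 2.34 in the combination, where 2 were called higher (Flt3 and Itgax) and 2 lower (Zbtb46 and Cd209a). With the mean of the late neutrophil markers as a covariate, a fit added after the data were seen, limma called 0 of the 10 members in the combination against PBS, 2 in CpG1668 against PBS and 0 in Dox against PBS. The share of all genes called in that fit is not given here, so the fall cannot be read as particular to the members. The marker mean rose with treatment, so its effect and that of treatment cannot be told apart in these libraries. The part of other cells in the members' changes was not tested. In bulk RNA, a change in the share of a cell type and a change in RNA per cell cannot be told apart.

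Within the combination group, 7 of the 10 members (70.0%) had their lowest value in library 2 and their highest in library 3, the order of the late neutrophil and monocyte sums. The monocyte sum was mostly Lyz2. Of the 12167 genes, 23.4% had that order of libraries. Tlr2 and Cd14 were instead highest in library 2. The 7 include Lgmn, which fell with treatment, and Slc15a4, whose values were 3.18, 3.13 and 3.18 RPKM. In Dox, the late neutrophil sum was 549, 1260 and 2240 in libraries 1 to 3, and only Tlr2 and Cnpy3 rose in that order. Tlr9 (0.180, 0.236 and 0.173) and Unc93b1 (4.01, 4.78 and 4.52) did not. A link between the members and the marker sums was not tested.

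**Figure D5:**
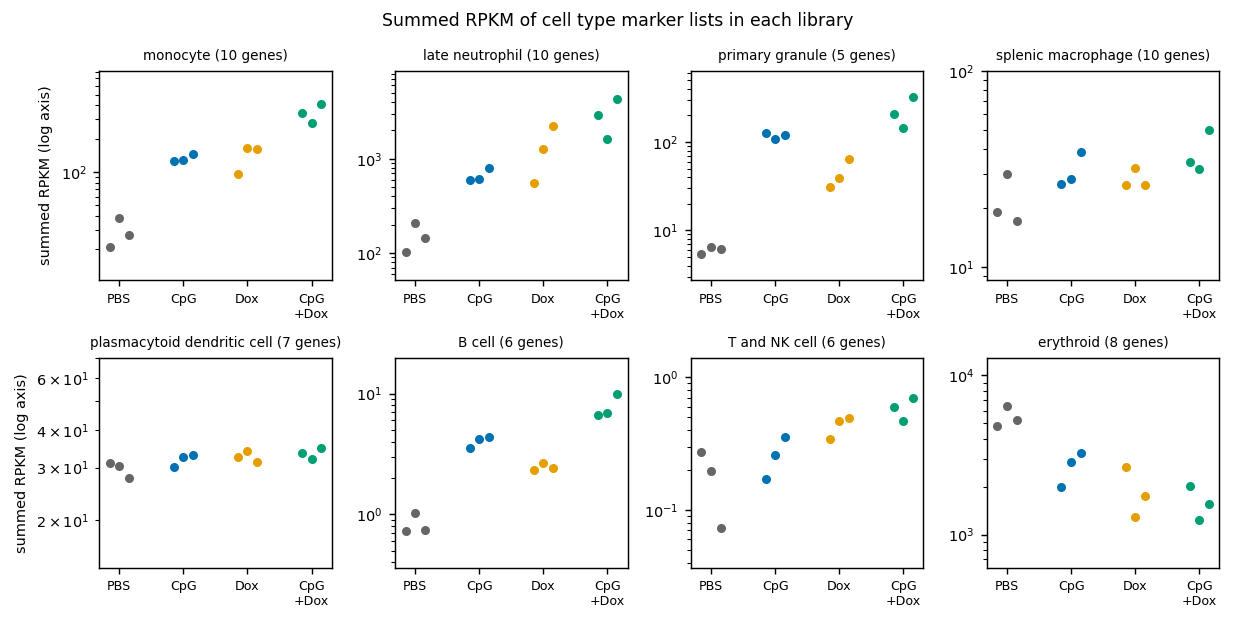
Summed RPKM of marker lists in each library, by group; points are libraries, and the panels have separate log axes. The late neutrophil sum runs from 103 to 209 in PBS and from 1630 to 4290 in CpG1668+Dox, and the erythroid sum from 4830 to 6430 and from 1240 to 2020. The erythroid sum is mostly Hba-a1 and Hbb-bt, and the monocyte sum mostly Lyz2.

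The genes whose pattern lay nearest to 3 members were sought by the 3 log2 ratios of group means to PBS, over 12160 genes. The log2 ratios of Tlr9 were 1.72 in CpG1668, 0.99 in Dox and 2.17 in the combination, and the nearest genes were Tmem176b (root mean square difference 0.11), Mpeg1 (0.156), Slfn2 (0.169), Gm13394 (0.174) and Ms4a6d (0.184). Those of Unc93b1 were 1.18, 0.76 and 1.79, with Rab32 (0.036), Sirpa (0.064), AB124611 (0.097), Dok3 (0.103) and Eif4e3 (0.105) nearest. Those of Tlr2 were 0.55, 0.35 and 0.93, with Nfil3 (0.024), Adssl1 (0.027), Gm45456 (0.031), Sema4a (0.036) and Gm3788 (0.044) nearest. The 3 ratios share the PBS libraries and rest on 4 group means, so likeness here is a description.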

How the data were processed

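RNA of sorted leukaemia cells was measured in 12 libraries, 3 in each of 4 groups taken from the sample titles. The authors deposited RPKM values for 33531 gene symbols per library. Per the submitters' processing notes, STAR 2.7.9, Partek 7.18.0723 and build mm10 were used, with no role given for each. The sources used here do not give the annotation, strand setting or filters. No read counts were used here. Depth was estimated from single-transcript genes, of which 72.3% to 73.6% lay within 0.05 of a whole read, so reads could not be recovered gene by gene. Depth limits cover counting error only.

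A limma 3.58.1 model (R 4.3.3) of log2(RPKM + 1) had 4 group means, an intensity trend and 8 residual degrees of freedom. Benjamini-Hochberg adjustment ran over the 12167 genes averaging 1 RPKM or more, and members below that came from the fit over all 33531 genes. The threshold was an adjusted p of 0.05. The code was tested on simulated data. Identifiers and positions came from GENCODE M21 (GRCm38), in which 32391 symbols (96.6%) matched. Promoter windows are from RefSeq (GRCm38.p6). Sums, ratios and motif matches were computed in Python 3.11.15.

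The members and gene lists were chosen with earlier results of these data known. The text names all members, Stat3 and Irf8, up to 4 genes per pathway list with the smallest p against PBS, and the 5 genes nearest in pattern to Tlr9, Unc93b1 and Tlr2. Tlr3, Tlr5, Tlr11, Tlr12, Hsp90b1, Ctsb, Ctsl, Vamp3, Siglech, Bst2, Cd34, Gata2, Erg, Ighm, Cd79b, Flt3, Itgax, Zbtb46, Cd209a, Acaa1a and Stat5a were chosen after their values were seen. So were Lyz2, Hba-a1, Hbb-bt, Alas2, Gata1, Klf1, F13a1, Fcgr1, Klf4, Mmp8, Cxcr2, Ly6g, Prtn3, Ms4a3 and Adgre1. Alternatives were a pseudocount of 0.1, 2 other filters (none, and 5 RPKM on average), quantile and median-of-ratios scaling, a fit with no intensity trend or with only the groups compared, a replicate block, each library left out and, added after the data were seen, a late neutrophil covariate.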

Additional observations from a re-analysis of the deposited data

How the results depend on the processing

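When the mean of the late neutrophil markers was added to the fit, calls among the 10 members fell to 2 for CpG1668 against PBS (6 as reported), 0 for Dox against PBS (3), 0 for CpG1668+Dox against PBS (10), 0 for CpG1668+Dox against CpG1668 (3) and 1 for CpG1668+Dox against Dox (6), and rose to 1 for CpG1668 against Dox (0); marker level and treatment cannot be told apart. The share of all genes called in the covariate fit is not given here. Dox against PBS gave 1 call without a filter, 1 with a mean RPKM of at least 5 and 1 with the replicate block. Fitting only the groups compared gave 1 call for the combination against CpG1668 and 2 for the combination against Dox, with fewer libraries in the fit, and could not be run for the interaction. With each library left out in turn, calls ran from 3 to 7 in CpG1668 against PBS (3 without PBS 1, PBS 3 or CpG1668 3), 1 to 3 in Dox against PBS (1 without any 1 PBS library, Dox 1 or Dox 3), 10 to 10 for the combination against PBS, 1 to 3 for CpG1668+Dox against CpG1668 (1 without CpG1668 1, CpG1668 2 or CpG1668+Dox 1), 3 to 7 for CpG1668+Dox against Dox (3 without CpG1668+Dox 1 or Dox 1) and 0 to 1 in CpG1668 against Dox. The interaction called 0 members in every fit run. No called change turned direction in any of these fits. The replicate numbers showed no sign of pairing the libraries. Deviations of same-numbered libraries correlated at -0.21 to 0.27 and those of others at -0.38 to 0.32. Overlapping ranges cannot exclude a pairing. The replicate block gave 4, 1 and 10 calls against PBS for CpG1668, Dox and CpG1668+Dox, then 2 and 4 for CpG1668+Dox against CpG1668 and Dox. The share of higher calls among genes called between CpG1668 and Dox was 22.6%, and 35.3% with quantile normalization or 36.4% with median-of-ratios scaling. Cd14 was not called without a filter in CpG1668 or Dox against PBS (adjusted p = 0.089 and 0.11). Unless noted, the cause of a changed count was not tested. Depth limits Tlr4 and Tlr9 most, with 5 to 12 and 7 to 19 reads per PBS library.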
